A study of Mus musculus with 2 samples.

Results

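The genes described here encode 39 proteins that mark, license and fire the origins of DNA replication and then copy DNA at the fork. They were chosen by gene name and not by a rule on measured values, but with earlier results of these data known. All 39 were on the array, with 52 probes in all. A gene was tested if 4 or more of the 8 arrays showed its probe well above background, with at least 3 values in each group, and 38 of the 39 were, among 30864 features tested. Orc1 was not. Transcripts were measured on 1-colour Cy3 arrays in isolated pancreatic islets, collected 3 days after surgery on C57BL/6J mice that were 8 weeks old. One group had pancreatectomy, with 60% of the pancreas removed, and the other had a sham operation, with 4 arrays each. No genetic change or drug is named for either group. The 4 arrays in each group are filed under 1 sample, and whether they hold RNA of different animals is not stated. The p-values therefore speak of the spread from array to array, and that spread may be technical.

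All 8 arrays lie on 1 slide, pancreatectomy arrays in slide columns 3 and 4 and sham arrays in columns 1 and 2, so slide column and group cannot be told apart. The sham label names one array position a second time in place of the last, and sham replicate 4 is in its group through the record that ties its file to the sham sample. The 2 slide rows each hold both groups. Probes well above background made up 59.1 to 71.4% on pancreatectomy arrays and 48.1 to 70.9% on sham arrays, with the lowest share on sham replicate 3. Markers of islet endocrine cells were measured for 12 of 12 genes, and their summed signal was 2147800 to 3734400 on pancreatectomy arrays and 2206800 to 4915300 on sham arrays. Of the 12, 2 had a higher mean after pancreatectomy, and 0 passed an adjusted p of 0.05 in limma. Their median difference (log2, pancreatectomy minus sham) was -0.15, and the differences ran from -0.65 for Nkx6-1 to 0.44 for Ppy. Slc2a2 had -0.64 and Pdx1 -0.51, while Ins1 had -0.082, Iapp -0.059 and Chgb 0.019. Some arrays carried transcripts of other organs. The mean of 8 liver markers lay 4.36 and 3.49 (log2) above the sham mean on pancreatectomy replicates 1 and 4 and 4.16 above it on sham replicate 4. The mean of 5 gut markers lay 3.06 above the sham mean on pancreatectomy replicate 3, and that of 7 lymphocyte markers 2.63 above it.

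Replication starts at origins bound by the origin recognition complex. In G1 phase, Cdc6 and Cdt1 load the MCM helicase there, and at the start of S phase the kinase Cdc7 with its partner Dbf4, together with cyclin-dependent kinases, brings in Cdc45 and the GINS complex to make the helicase active. Polymerase alpha with primase then starts each new strand, polymerase epsilon extends the leading strand and polymerase delta the lagging strand, while clamp loader, nuclease, ligase and fork protection proteins keep the fork moving. Most adult beta cells rest outside the cell cycle. Of the 38 tested genes, 29 were well above background on all 4 sham arrays. In a bulk sample, more cells in cycle and more transcript per cell cannot be told apart.

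After pancreatectomy 9 of the 38 tested genes rose, 0 fell and 29 did not pass an adjusted p of 0.05 in limma with Benjamini-Hochberg adjustment over all features. Among all features 0.544% rose and 0.0842% fell. The genes that rose were Dtl, Cdc6, Pole, Clspn, Cdt1, Gins1, Fen1, Pola1 and Rpa2, from 18.8-fold for Dtl, which was well above background on 2 of 4 sham arrays, to 2.12-fold for Rpa2. Clspn was well above background on 1 of 4 sham arrays, and Cdc6, Pole and Gins1 on 3 of 4. These genes and Dtl therefore needed pancreatectomy signal to enter the test. When only probes above background on all 8 arrays were tested, they dropped out and 4 of the 9 kept their calls. With a normexp background model 2 genes kept their calls, Pole and Cdt1. With slide row as a block 5 kept them, and Gins1, Fen1, Pola1 and Rpa2 did not. The median difference (log2, pancreatectomy minus sham) was 0.78 over the 38 genes and -0.037 over all features. Every pancreatectomy array lay above every sham array for 22 of the 38 genes, against 2.99% of all features, and 0 genes had every pancreatectomy array below every sham array, against 5.29% of all features. At an unadjusted p under 0.05, 23 of the 38 were higher, against 4.22% of all features, and 36 of the 38 had a difference above 0, against 45.1%. Of the 29 that did not pass, 14 had an unadjusted p under 0.05, all with a higher mean after pancreatectomy, and the differences of the 29 ran from -0.077 for Orc5 to 1.60 for Gins2. The count of 9 was 5 without pancreatectomy replicate 1 or 4 or sham replicate 1, 3 or 4, 4 without sham replicate 2, 7 without pancreatectomy replicate 3 and 12 without pancreatectomy replicate 2. With 2 arrays against 2 within a slide row limma called 0 of the 38 genes. At an unadjusted p under 0.05, 17 were higher in row 1, against 2.66% of all features, and 19 in row 2, against 1.87%, and the median difference was 0.69 in row 1 and 0.81 in row 2.

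**Figure D1:**
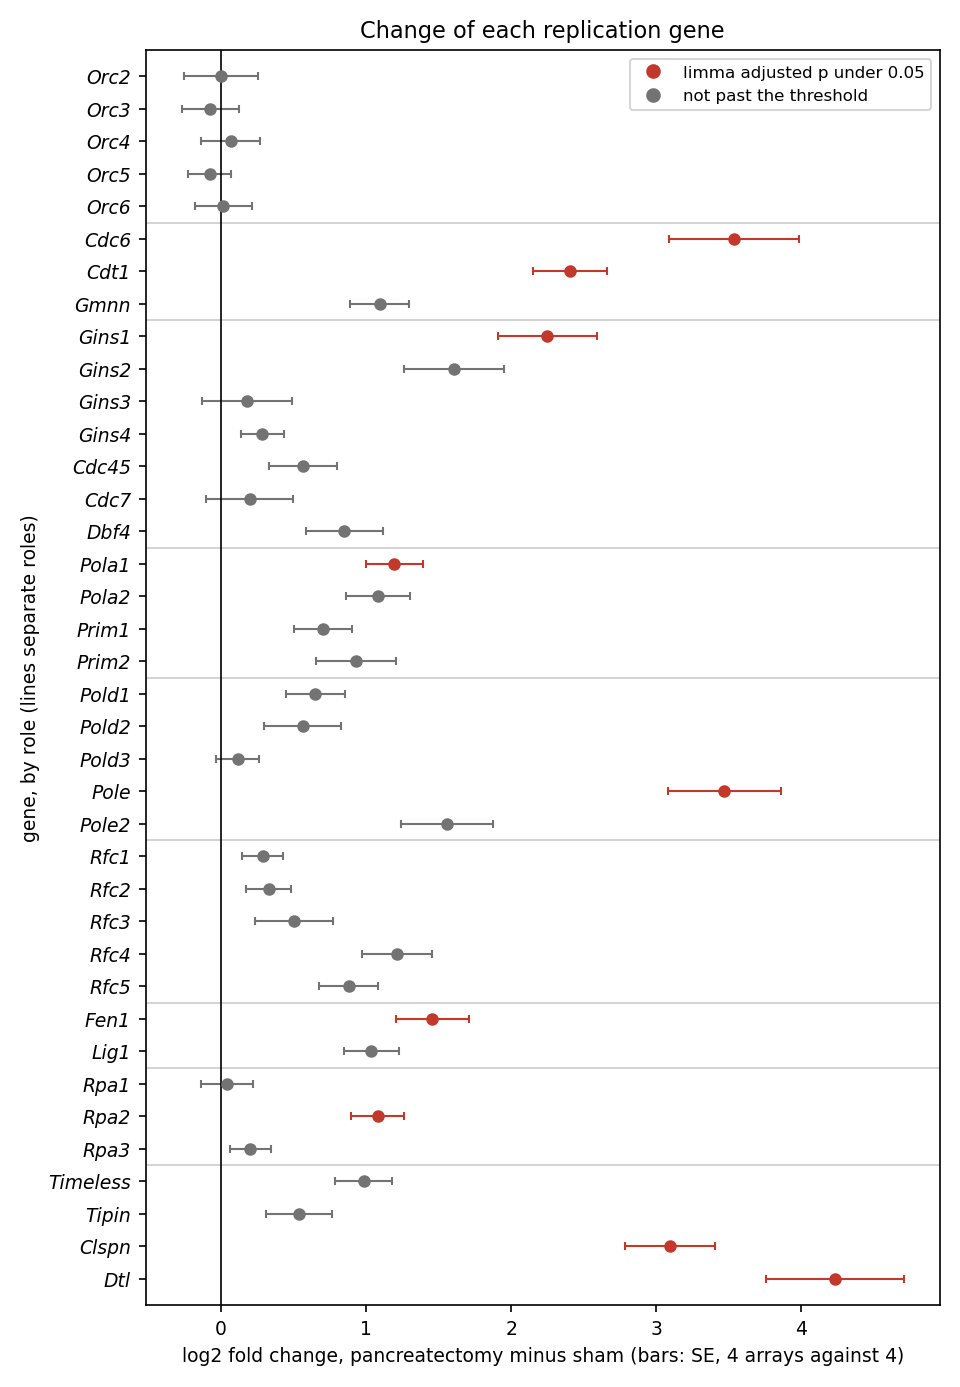
Log2 fold change (pancreatectomy minus sham, horizontal axis) of each of the 38 tested replication genes, with the standard error over 4 arrays against 4 as bars and genes grouped by role down the page. Red points mark the 9 genes past an adjusted p of 0.05, and the 5 tested subunits of the origin recognition complex lie near 0, from -0.077 to 0.068.

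Subunits of the origin recognition complex differed little. Of the 6, 5 were tested and 0 passed, with 0 at an unadjusted p under 0.05, and their differences ran from -0.077 ± 0.15 for Orc5 to 0.068 ± 0.20 for Orc4 (SE, 4 arrays against 4). Orc4 had levels (normalized log2 signal) of 6.79, 7.61, 6.82 and 7.02 on pancreatectomy replicates 1 to 4, against 7.05, 6.91, 7.12 and 6.89 on sham replicates 1 to 4. Orc5 had 7.14, 6.67, 6.79 and 6.88 on pancreatectomy arrays, against 6.89, 6.95, 7.07 and 6.86 on sham arrays. The groups overlapped for both genes, as for the other 3 tested subunits, and the other probe of Orc4 gave a difference of -0.19. With differences this small the sign depends on scaling, and median scaling put Orc2 at -0.12 and Orc6 at -0.11. Orc1, the largest subunit, whose protein is known to vary through the cell cycle in human cells, was well above background on 2 of 4 pancreatectomy arrays and 0 of 4 sham arrays. Its levels were 3.75, 2.27, 3.53 and 3.70 on pancreatectomy arrays and 1.12, 0.88, 3.35 and 2.19 on sham arrays, and no fold change is given for signals this dim.

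Of the 3 licensing genes 2 rose. Cdc6, the ATPase that loads the helicase with Cdt1, had levels of 7.83, 6.28, 6.29 and 7.94 on pancreatectomy replicates 1 to 4, against 3.62, 3.50, 2.94 and 4.13 on sham replicates 1 to 4. All pancreatectomy arrays lay above all sham arrays, with replicates 1 and 4 highest, and 3 of 4 sham arrays were well above background. Cdc6 rose by 3.54 ± 0.45 on the log2 scale, or 11.6-fold (adjusted p = 0.0130). Its other probe was above background on 4 of 4 pancreatectomy arrays and 0 of 4 sham arrays, so it gave no measured sham level. With a normexp background model the difference was 1.44 and did not pass (adjusted p = 0.252). Cdt1 had 10.92, 9.82, 10.38 and 10.96 on pancreatectomy arrays, against 8.04, 8.06, 8.12 and 8.24 on sham arrays. It rose 5.30-fold, by 2.41 ± 0.25 (adjusted p = 0.00794), and unlike Cdc6 it was well above background on every array. Gmnn encodes geminin, the inhibitor that binds Cdt1 and blocks a second round of licensing. Its levels were 9.22, 8.66, 8.64 and 9.39 on pancreatectomy arrays, against 7.84, 7.80, 7.85 and 8.04 on sham arrays. The groups did not overlap, yet its difference of 1.09 ± 0.20 did not pass (adjusted p = 0.0646). It passed with an intensity trend (1.09), with array weights (1.08) and when only probes above background on all 8 arrays were tested (1.09).

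Of the genes that act when origins fire, 1 of 7 rose. Gins1, a subunit of the GINS complex that joins the helicase, had levels of 8.16, 7.19, 7.34 and 8.14 on pancreatectomy replicates 1 to 4, against 5.93, 5.22, 4.75 and 5.93 on sham replicates 1 to 4. It rose 4.76-fold, by 2.25 ± 0.34 (adjusted p = 0.0266), and was well above background on 3 of 4 sham arrays. It did not pass with slide row as a block (adjusted p = 0.0579) or with normexp, which gave 1.35 (adjusted p = 0.0523). Gins2 had 8.16, 6.56, 7.23 and 7.83 on pancreatectomy arrays, against 6.03, 5.41, 6.17 and 5.75 on sham arrays. Both genes were higher on every pancreatectomy array than on any sham array, but the difference of 1.60 ± 0.34 for Gins2 did not pass (adjusted p = 0.115). The other two subunits differed less. Gins3 had 13.52, 13.43, 13.56 and 13.65 on pancreatectomy arrays, against 13.72, 13.75, 12.32 and 13.64 on sham arrays, a difference of 0.18 ± 0.31 that turns to -0.17 without sham replicate 3. Gins4 had 0.29 ± 0.15, with no overlap between the groups. Cdc45, the helicase cofactor, had 0.56 ± 0.23 (adjusted p = 0.452), with pancreatectomy replicate 3 below 2 of the sham arrays. Cdc7, the catalytic subunit of the Dbf4-dependent kinase, was well above background on 3 of 4 arrays in each group, and had 0.20 ± 0.30. Dbf4, its activating subunit, had 6.78, 5.52, 5.75 and 5.74 on pancreatectomy arrays, against 5.07, 5.06, 5.25 and 4.99 on sham arrays. Its groups did not overlap, and its difference of 0.85 ± 0.26 did not pass (adjusted p = 0.308).

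All 4 subunits of polymerase alpha and primase were higher on every pancreatectomy array than on any sham array, and 1 of 4 passed. Pola1, the catalytic subunit that extends the RNA primer with DNA, had levels of 9.33, 8.84, 8.86 and 9.54 on pancreatectomy replicates 1 to 4, against 7.93, 8.10, 7.76 and 8.00 on sham replicates 1 to 4. It rose 2.29-fold, by 1.19 ± 0.20 (adjusted p = 0.0372), and did not pass with slide row as a block (adjusted p = 0.0781). Pola2, the accessory subunit, had 1.08 ± 0.22 (adjusted p = 0.0929) and was well above background on 3 of 4 sham arrays. Prim1, which makes the RNA primer, had 10.97, 10.28, 10.54 and 10.83 on pancreatectomy arrays, against 10.07, 10.06, 9.60 and 10.07 on sham arrays. This was the smallest difference of the 4, 0.70 ± 0.20 (adjusted p = 0.252), and Prim2, the large primase subunit, had 0.93 ± 0.27.

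Of the 5 subunits of polymerases delta and epsilon 1 rose. Pole, the catalytic subunit of polymerase epsilon, had levels of 9.49, 8.10, 8.40 and 9.20 on pancreatectomy replicates 1 to 4, against 5.74, 5.31, 4.48 and 5.78 on sham replicates 1 to 4. It rose 11.1-fold, by 3.47 ± 0.39 (adjusted p = 0.00833), and was above background on 3 of 4 sham arrays. Its other kept probe had a difference of 1.55 and missed the threshold when tested alone (adjusted p = 0.401), and the mean of both gave 2.51. Pole2, the second subunit, had 7.03, 5.62, 6.28 and 6.87 on pancreatectomy arrays, against 5.26, 4.85, 4.48 and 4.98 on sham arrays. The groups did not overlap, and the difference of 1.56 ± 0.32 did not pass (adjusted p = 0.0936). Of polymerase delta, Pold1, the catalytic subunit, had 10.06, 9.23, 10.08 and 9.88 on pancreatectomy arrays, against 9.10, 9.14, 9.17 and 9.23 on sham arrays. Pancreatectomy replicate 2 lay just above the highest sham array, and the difference was 0.65 ± 0.20 (adjusted p = 0.309). Pold2 had 0.56 ± 0.26 and Pold3, an accessory subunit, 0.12 ± 0.15, with overlapping groups in both.

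The clamp loader, which places the PCNA ring on DNA, had 0 of 5 subunits past the threshold. Rfc4 had levels of 11.02, 10.29, 10.39 and 11.12 on pancreatectomy replicates 1 to 4, against 9.32, 9.42, 9.92 and 9.31 on sham replicates 1 to 4. The groups did not overlap, and the difference was 1.21 ± 0.24 (adjusted p = 0.0837). A second probe gave 1.26. Rfc5 had 0.88 ± 0.20, also without overlap, but its other probe, well above background on every array, gave 0.054. Rfc1, the large subunit, had 10.48, 10.46, 10.41 and 10.57 on pancreatectomy arrays, against 10.07, 10.44, 10.03 and 10.22 on sham arrays, a difference of 0.29 ± 0.14. Rfc2 had 0.33 ± 0.15 and Rfc3 0.50 ± 0.27, and the groups overlapped in all 3.

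Both genes that finish Okazaki fragments, the short pieces of the lagging strand, were higher on every pancreatectomy array than on any sham array. Fen1, the nuclease that removes the displaced primer flap, had levels of 12.29, 11.40, 11.55 and 12.36 on pancreatectomy replicates 1 to 4, against 10.49, 10.57, 10.16 and 10.55 on sham replicates 1 to 4. It rose 2.75-fold, by 1.46 ± 0.25 (adjusted p = 0.0434), and did not pass with slide row as a block (adjusted p = 0.0912). Lig1, the ligase that seals the nick, had 11.35, 10.66, 10.91 and 11.21 on pancreatectomy arrays, against 10.01, 10.08, 9.73 and 10.17 on sham arrays. Its difference of 1.04 ± 0.19 did not pass (adjusted p = 0.0613). It passed with an intensity trend (1.04), with array weights (0.98) and when only probes above background on all 8 arrays were tested (1.04). It also passed without pancreatectomy replicate 2 (1.16). Without that array and sham replicate 3, an alternative chosen after seeing the data, it passed at 1.07.

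Replication protein A coats single-stranded DNA as a complex of 3 subunits, and 1 of 3 rose. Rpa2, the middle subunit, had levels of 8.62, 8.32, 8.14 and 8.84 on pancreatectomy replicates 1 to 4, against 7.22, 7.44, 7.54 and 7.39 on sham replicates 1 to 4. It rose 2.12-fold, by 1.08 ± 0.18 (adjusted p = 0.0406), and did not pass with slide row as a block (adjusted p = 0.0846). Rpa1, the large subunit, had 13.69, 13.78, 13.59 and 13.94 on pancreatectomy arrays, against 13.39, 13.69, 14.10 and 13.66 on sham arrays, a difference of 0.042 ± 0.18 that median scaling turned to -0.082. Rpa3, the small subunit, had 0.20 ± 0.14, and the groups overlapped for both.

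Of the 3 fork protection genes, Clspn, Timeless and Tipin, 1 rose, and Dtl rose as well. Dtl, the adaptor that directs the CRL4 ubiquitin ligase to Cdt1 during S phase, had levels of 8.39, 6.99, 7.11 and 8.28 on pancreatectomy replicates 1 to 4, against 4.38, 2.56, 3.02 and 3.88 on sham replicates 1 to 4. It rose by 4.23 ± 0.47 (adjusted p = 0.00833), and 2 of 4 sham arrays were well above background. Dtl thus needed its pancreatectomy signal to enter the test, and its fold and adjusted p rest in part on dim sham signal. With normexp its difference was 1.79 and did not pass (adjusted p = 0.123). Clspn encodes claspin, which carries the checkpoint signal from the fork to the kinase Chk1. It had 6.55, 5.27, 5.53 and 6.10 on pancreatectomy arrays, against 2.19, 2.89, 2.96 and 3.03 on sham arrays. It rose 8.53-fold, by 3.09 ± 0.31 (adjusted p = 0.00725), and 1 of 4 sham arrays was well above background. Clspn thus entered the test through its pancreatectomy signal, and its fold and adjusted p rest on dim sham signal. With normexp its difference was 0.89 (adjusted p = 0.559). Timeless and Tipin form a complex that couples the helicase to the polymerases. Timeless had 0.98 ± 0.20 without overlap (adjusted p = 0.0890). Tipin had 11.40, 11.44, 11.19 and 11.98 on pancreatectomy arrays, against 10.55, 11.04, 11.36 and 10.91 on sham arrays, and its difference of 0.54 ± 0.23 did not pass, with pancreatectomy replicate 3 below sham replicate 3.

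**Figure D2:**
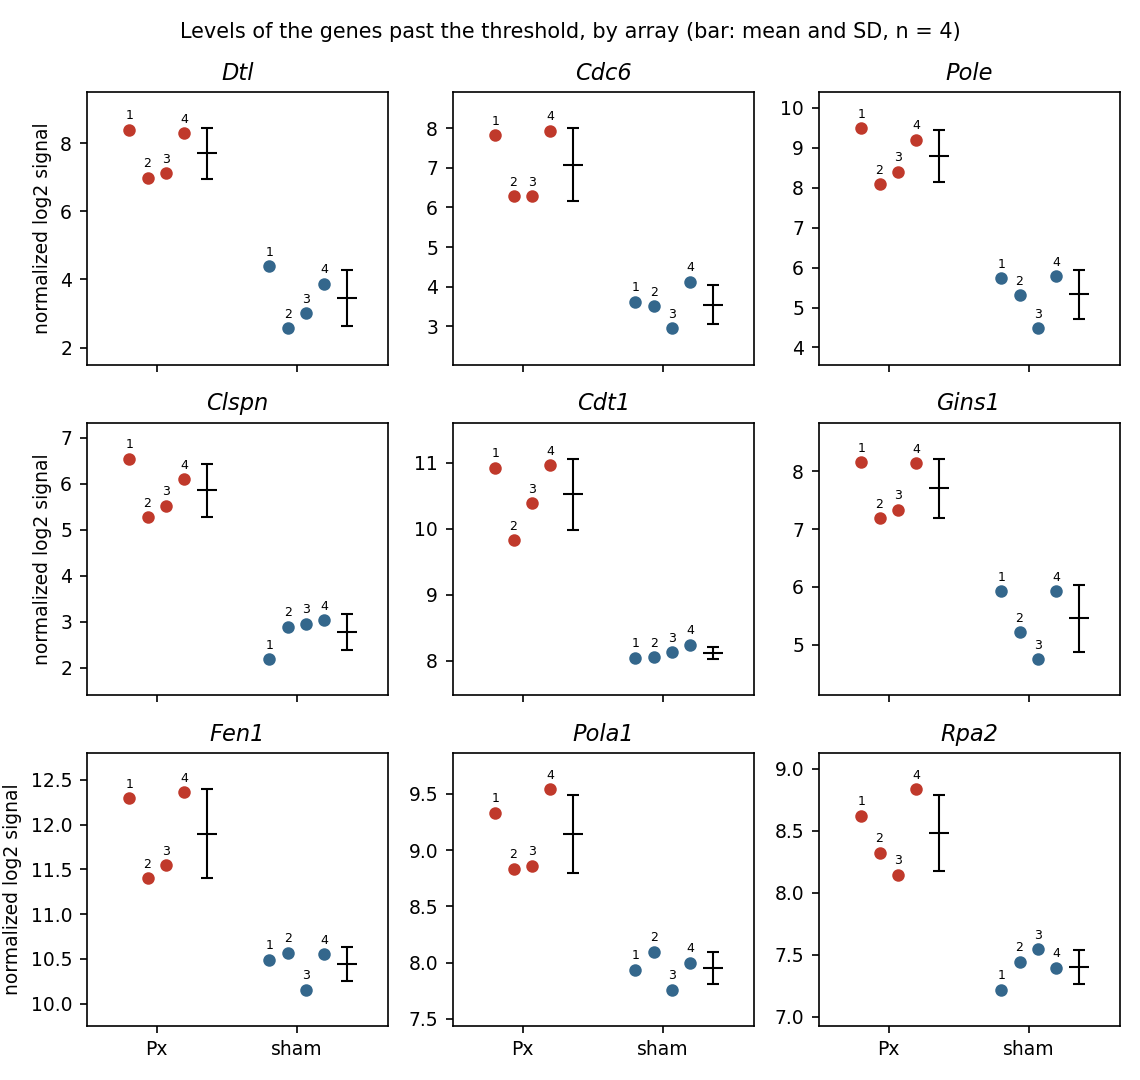
Normalized log2 signal (vertical axis, with its own range in each panel) of the 9 genes past the threshold on each of 4 pancreatectomy (Px, red) and 4 sham (blue) arrays, numbered by replicate, with the mean and SD beside them. The groups do not overlap in any panel, and pancreatectomy replicates 1 and 4 are the highest in each.

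The difference stayed positive for all 9 genes in every alternative in which they were tested. Cdt1 kept its call in 19 of 24 alternatives, with differences from 1.75 to 2.64, Pole in 18 of 23 (2.17 to 3.70), Dtl in 18 of 23 (1.79 to 4.54), Clspn in 17 of 23 (0.89 to 3.45) and Cdc6 in 15 of 23 (1.44 to 3.93). Gins1 kept it in 9 of 23, Pola1 in 7 of 24, and Fen1 and Rpa2 in 6 of 24 each. With normexp Pole had 2.17 and Cdt1 2.10. Leaving out any 1 of the 8 arrays kept the calls of Cdt1, Pole, Dtl and Clspn, and ended that of Cdc6 without sham replicate 2 (3.52). It ended the calls of Fen1, Pola1, Rpa2 and Gins1 in most of the 8 cases, each of them without pancreatectomy replicate 1 or 4 or any sham array. The set of tested genes was not filtered again in these 8 fits, so Dtl and Clspn were still set against dim sham signal. With normexp neither passed in limma, at 1.79 for Dtl (adjusted p = 0.123) and 0.89 for Clspn (adjusted p = 0.559).

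The authors' deposited table, which holds 1 average per group, gave pancreatectomy minus sham differences of 4.24 for Dtl, 3.47 for Pole and 2.41 for Cdt1. The probes of these genes lie on chromosome 1 at 193361259 to 193361318 for Dtl, on chromosome 5 at 110766375 to 110766434 for Pole and on chromosome 8 at 125096893 to 125096952 for Cdt1, in the mm9 build of the array design. Whether they fall in coding exons or UTRs was not looked up for mm9.

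Subunits of 1 complex were compared within each array, where a shift of the whole array cancels out. Probes differ in how well they bind, so only the change of such a difference between groups is read. The difference of 2 log2 signals was taken on each array and compared between the groups with a two-sided exact permutation test, in which 4 arrays against 4 cannot give a p below 0.0286. Over 41 pairs of subunits in 9 complexes, 10 pairs reached that smallest p, and 0 passed 0.05 after Benjamini-Hochberg adjustment over the 41 pairs (lowest adjusted value 0.117). Several of the 10 share a gene, so they are not independent, and the share of such pairs among other features was not computed. Gins1 minus Gins3 was -6.24 to -5.36 on pancreatectomy arrays and -8.53 to -7.57 on sham arrays, an excess of 2.07 for Gins1 (exact permutation p = 0.0286, adjusted p over pairs = 0.117) that was 1.13 with normexp. Pole minus Pole2 was 2.12 to 2.47 on pancreatectomy arrays and -0.0030 to 0.80 on sham arrays, an excess of 1.91 at the same p. That excess was 0.95 with the mean of the probes of Pole and 1.43 with normexp. For Rpa2 minus Rpa1 the ranges were -5.46 to -5.06 on pancreatectomy arrays and -6.56 to -6.17 on sham arrays, an excess of 1.04. With normexp the excess of Rpa2 was 0.81. Rfc4 minus Rfc2 was 0.19 to 0.71 on pancreatectomy arrays and -0.57 to -0.18 on sham arrays, an excess of 0.88. Those 3 further pairs also had the smallest p of the test. In the origin recognition complex 0 of 10 pairs reached it, and the largest excess was 0.14.

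**Figure D3:**
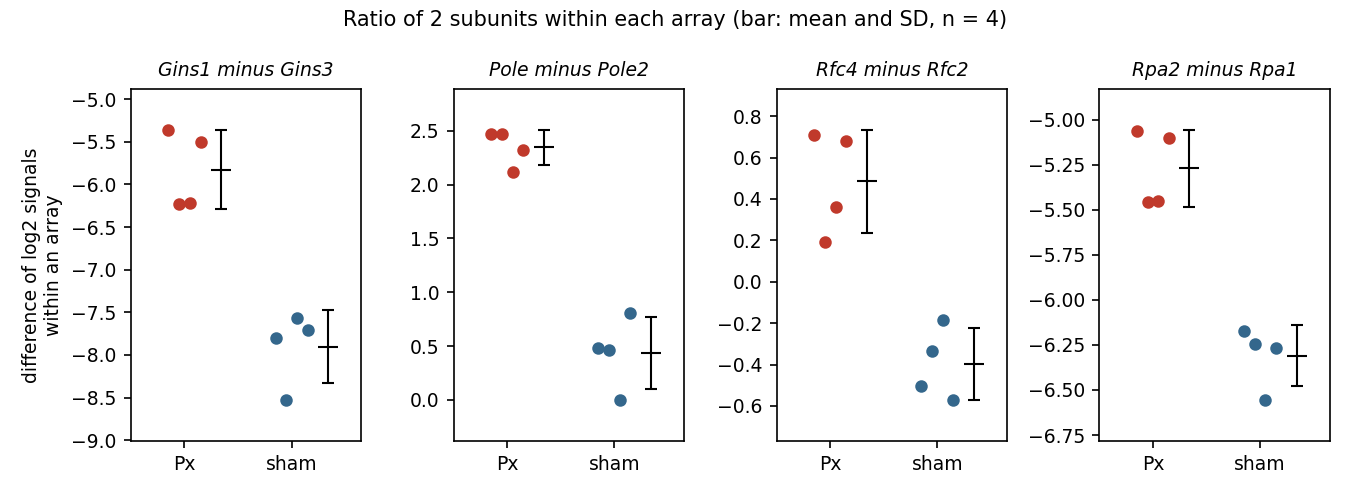
Difference between the log2 signals of 2 subunits of a complex within each array (vertical axis, its own range in each panel), for 4 pancreatectomy (Px, red) and 4 sham (blue) arrays, with the mean and SD beside them. In the 4 pairs drawn the pancreatectomy arrays lie above all sham arrays, with the excess running from 0.88 for Rfc4 over Rfc2 to 2.07 for Gins1 over Gins3. The 4 were picked among the 10 of 41 pairs at the smallest p, so this lack of overlap follows from the choice. After adjustment 0 of the 41 passed.

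Transcription of S-phase genes is driven in large part by E2F factors, so the promoters of the genes were read for E2F-like letters. RefSeq promoters (GRCm38.p6, 250 bases before to 50 after the start) were at hand for 31 of the 39 genes, 7 of the 9 that rose among them. The letters searched were TTTCCCGC, TTTGGCGC and TTTCGCGC on both strands. At least 1 match was present in 5 of the 7 genes that rose and in 7 of 23 other tested genes, against 2.12% of 27025 genes in the table. The pentamer CCAAT, searched in the same way, was present in 42.1% of promoters of tested genes and in 37.4% of all promoters. The promoters of the 5 genes that rose and hold a match are shown because they set the letters beside the values above, with the match in capitals. They lie at chr1:191575495-191575794 (minus strand) for Dtl, chr11:98907901-98908200 (plus) for Cdc6, chr8:122567765-122568064 (plus) for Cdt1, chr4:126556730-126557029 (plus) for Clspn and chrX:93632106-93632405 (minus) for Pola1, each written 5′ to 3′ on the strand of its gene.
Dtl: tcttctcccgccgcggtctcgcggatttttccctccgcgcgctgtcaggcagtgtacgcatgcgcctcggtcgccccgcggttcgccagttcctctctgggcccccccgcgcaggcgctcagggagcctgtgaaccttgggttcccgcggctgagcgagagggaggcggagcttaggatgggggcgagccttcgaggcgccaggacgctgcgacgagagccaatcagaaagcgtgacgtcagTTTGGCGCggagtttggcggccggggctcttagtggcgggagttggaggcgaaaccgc
Cdc6: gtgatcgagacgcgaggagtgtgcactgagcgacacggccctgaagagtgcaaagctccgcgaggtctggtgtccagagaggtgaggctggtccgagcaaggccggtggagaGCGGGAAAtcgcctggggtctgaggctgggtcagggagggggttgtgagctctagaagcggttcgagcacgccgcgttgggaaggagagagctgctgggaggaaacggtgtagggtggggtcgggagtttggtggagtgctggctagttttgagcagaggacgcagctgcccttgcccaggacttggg
Cdt1: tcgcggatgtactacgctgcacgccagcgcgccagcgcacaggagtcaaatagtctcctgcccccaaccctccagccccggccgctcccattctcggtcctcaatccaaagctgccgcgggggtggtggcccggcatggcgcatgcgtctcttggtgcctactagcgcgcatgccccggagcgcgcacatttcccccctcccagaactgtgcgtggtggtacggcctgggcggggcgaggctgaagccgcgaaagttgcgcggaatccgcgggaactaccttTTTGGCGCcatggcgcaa
Clspn: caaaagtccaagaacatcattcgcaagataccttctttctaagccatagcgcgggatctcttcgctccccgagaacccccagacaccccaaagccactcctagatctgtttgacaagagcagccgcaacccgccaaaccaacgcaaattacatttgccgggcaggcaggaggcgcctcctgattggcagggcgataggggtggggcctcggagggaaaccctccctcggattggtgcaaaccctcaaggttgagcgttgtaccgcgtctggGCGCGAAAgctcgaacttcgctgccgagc
Pola1: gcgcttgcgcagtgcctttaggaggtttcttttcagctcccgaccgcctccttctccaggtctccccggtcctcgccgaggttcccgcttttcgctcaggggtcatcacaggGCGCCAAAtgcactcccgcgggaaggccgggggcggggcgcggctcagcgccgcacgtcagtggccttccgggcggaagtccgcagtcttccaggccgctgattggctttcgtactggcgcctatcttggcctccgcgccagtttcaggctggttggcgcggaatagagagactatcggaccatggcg
The match starts 8 bases before the transcription start in Dtl, 138 before it in Cdc6 and Pola1, and at base 33 after it in Cdt1 and base 22 in Clspn. A CCAAT also stands in the promoters shown of Dtl, Pola1 and Clspn. A match also stands in Orc3 and Gins3, whose differences were -0.071 and 0.18, and none was found in Fen1 or Rpa2. A match is only a string of letters, and binding was not measured here.

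Of 41 further genes of replication, named in a list apart from the 39, 11 rose, 0 fell and 30 did not pass, with a median difference of 0.45. Among all features 0.544% rose and 0.0842% fell. The MCM helicase had 5 of 6 subunits past the threshold. Ticrr, which brings Cdc45 to licensed origins, was above background on 4 of 4 pancreatectomy arrays and 0 of 4 sham arrays, and was at least 5.52-fold higher after pancreatectomy. This sets the pancreatectomy mean against the mean, over sham arrays, of a floor, which is the probe's own signal or, where higher, the dimmest signal that still counted as well above background. Ticrr entered the test only through its pancreatectomy signal and is counted among the 11, and its fitted adjusted p of 0.00809 rests on sham signal not well above background. Asf1b, a histone chaperone, rose by 2.95 ± 0.35 and Dscc1, a subunit of an alternative clamp loader, by 2.94 ± 0.30. At the low end, Asf1a, the other form of that chaperone, had -0.54 ± 0.18, Cul4a, a scaffold of the CRL4 ligase, -0.33 ± 0.15, and Cul4b -0.26 ± 0.17, and none of these passed. The checkpoint kinases and clamp, Atr and Chek1 among them, had 0 of 6 past the threshold, from -0.16 to 0.28.

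Among 18522 other named genes, the 5 whose level followed the mean of the 38 genes most closely over the 8 arrays were Tonsl, Cenph, Fignl1, Spc24 and Rrm1, with Pearson r from 0.991 to 0.996. The 8 points fall into 2 groups, so these values mostly describe a shared difference between groups. Tonsl, a fork repair scaffold, had 8.37, 7.56, 7.76 and 8.23 on pancreatectomy arrays, against 6.98, 6.84, 6.76 and 6.99 on sham arrays. Rrm1, the large subunit of ribonucleotide reductase, had 11.08, 10.16, 10.39 and 10.88 on pancreatectomy arrays, against 9.52, 9.40, 9.47 and 9.50 on sham arrays.

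Pancreatectomy arrays also differed among themselves. The mean difference of the 38 genes from their sham mean was 1.29, 0.70, 0.81 and 1.31 on pancreatectomy replicates 1 to 4, against 0.023, -0.025, -0.10 and 0.10 on sham replicates 1 to 4. Replicate 4 was the highest pancreatectomy array for 20 of the 38 genes and replicate 1 for 16, while replicate 2 was the lowest for 24 and replicate 3 for 11. The mean of the liver markers was 4.36, -1.48, -0.080 and 3.49 from the sham mean on pancreatectomy replicates 1 to 4, and it was 4.16 on sham replicate 4, the sham array with the highest mean of the replication genes. The part of liver transcripts in this order was not tested. For the 9 genes that rose the means were 3.01, 1.97, 2.13 and 2.99 on pancreatectomy arrays, against 0.12, -0.091, -0.30 and 0.28 on sham arrays.

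**Figure D4:**
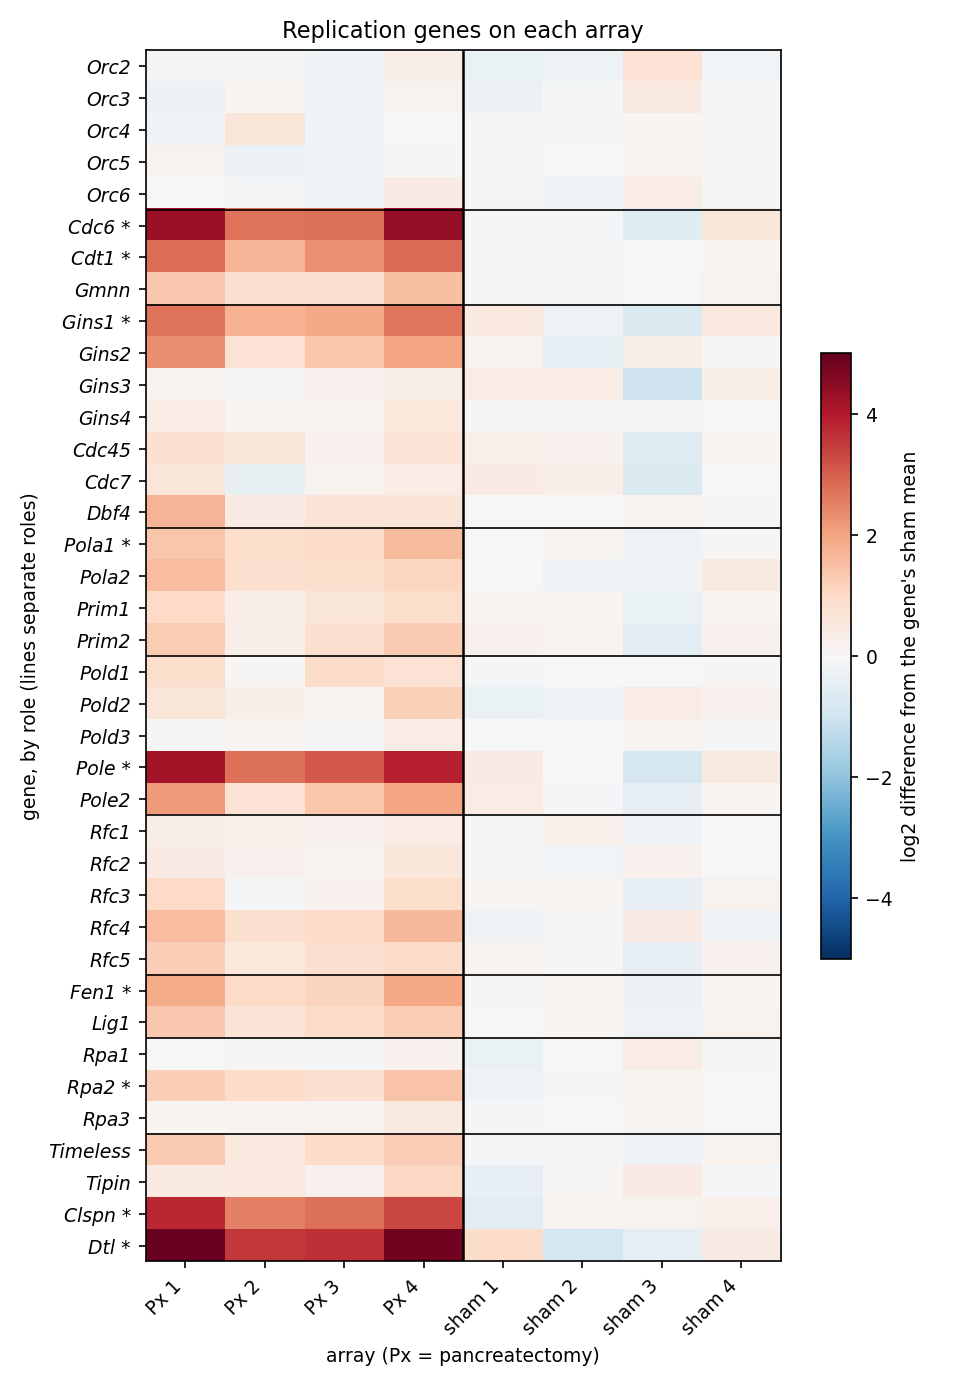
Log2 difference of each of the 38 tested genes from its own sham mean (colour) on each of 4 pancreatectomy (Px) and 4 sham arrays (columns), with genes by role in rows and asterisks on the 9 past the threshold. The columns of pancreatectomy replicates 1 and 4 are darkest, and the rows of the origin recognition complex stay pale, between -0.34 and 0.73, on all 8 arrays.

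Markers of other cell types were high on some of these arrays. Fibroblast and stellate markers passed for 0 of 8 genes, with a median difference of 1.34 and a summed signal of 8551 to 119020 on pancreatectomy arrays and 6196 to 11779 on sham arrays. Their mean was 3.01, 0.011, 2.28 and 0.058 above the sham mean on pancreatectomy replicates 1 to 4. Macrophage markers passed for 0 of 9 genes, with a summed signal of 21375 to 30556 on pancreatectomy arrays and 23056 to 37270 on sham arrays. Their mean stood 1.72 and 1.35 above the sham mean on replicates 1 and 3, and at -0.41 and -0.043 on replicates 2 and 4. Neutrophil markers passed for 0 of 6 genes, and their mean was 1.44, 0.20, 1.17 and 0.53 above the sham mean on replicates 1 to 4. With replicates 2 and 4 alone against 4 sham arrays, the median difference of the replication genes was 0.73. Limma then called 0 of the 38 genes, with 20 higher at an unadjusted p under 0.05, against 4.76% of all features. Erythroid markers passed for 0 of 6 genes, and their summed signal was 27904 to 52997 on pancreatectomy arrays and 16026 to 22932 on sham arrays. Their mean stood 0.91 and 0.53 above the sham mean on replicates 2 and 4, and 0.19 and 0.12 above it on replicates 1 and 3. Endothelial markers passed for 0 of 8 genes, with 23231 to 31854 on pancreatectomy arrays and 20182 to 30335 on sham arrays. Lymphocyte markers passed for 0 of 7 genes, with 15524 to 26209 on pancreatectomy arrays and 15336 to 25905 on sham arrays. Acinar markers passed for 0 of 10 genes. From the sham mean, their mean was -0.55, 0.18, 1.44 and 0.17 on pancreatectomy replicates 1 to 4. On sham replicates 1 to 4 it was 1.34, 0.40, -1.93 and 0.19. Duct markers passed for 0 of 8 genes, with means of 0.94, -0.36, 0.61 and -0.26 on pancreatectomy replicates 1 to 4. On sham replicates 1 to 4 these were 0.35, 0.21, -0.24 and -0.32. The part of these cell types in the differences was not tested. With sham replicate 4 and pancreatectomy replicates 1, 3 and 4 left out, which carried liver, gut or B-cell transcripts, 1 pancreatectomy array stood against 3 sham arrays. The lone array is then assumed to vary like the others, and the median difference was 0.50, with 0 genes called and 11 higher at an unadjusted p under 0.05, against 3.46% of all features.

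**Figure D5:**
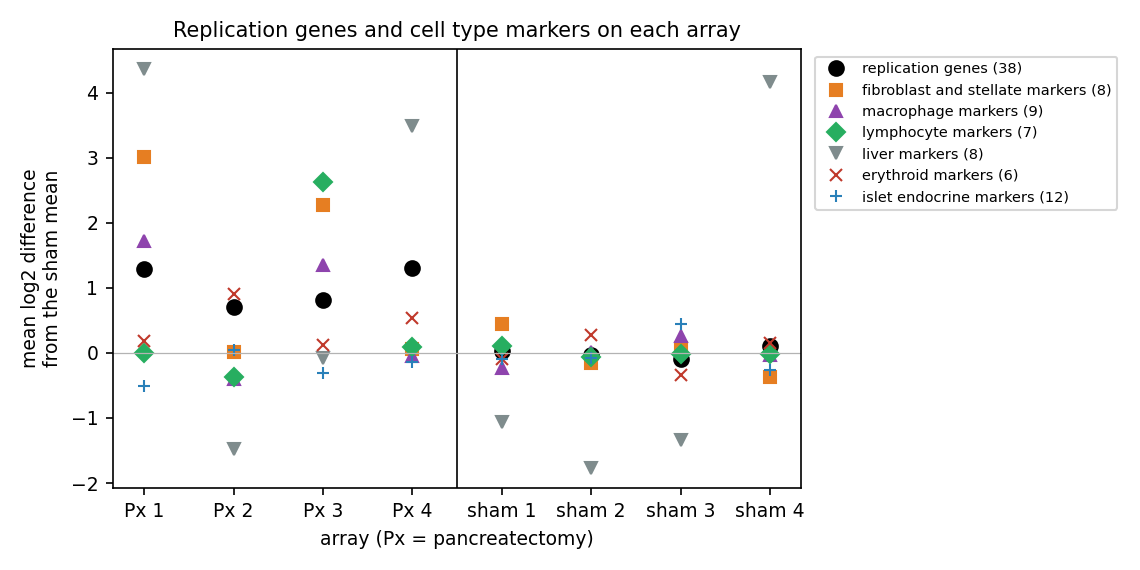
Mean log2 difference from the sham mean (vertical axis) of the 38 replication genes (black) and of marker lists for 6 cell types (coloured symbols, number of genes in the legend) on 4 pancreatectomy (Px) and 4 sham arrays. The replication genes lie from 0.70 to 1.31 on pancreatectomy arrays and from -0.10 to 0.10 on sham arrays, while fibroblast and liver markers are high on some arrays and not on others.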

How the data were processed

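Per the file headers, Feature Extraction 10.7.3.1 made the deposited scanner output (9.1 per the submitters' processing notes), and its processed spot intensity is linear, background-subtracted and detrended within an array. Flags of spots well above background come from it too. The authors' deposited table holds 1 average per group, as intensity and as log2 values after a 75th percentile shift in GeneSpring GX 12.5, per the file headers. It served for names and a check of direction (slope 0.999 over 37491 probes).

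Here each processed signal was put on the log2 scale and shifted by its array's 75th percentile, with the mean percentile added back, outlier spots left out and spots of a probe averaged. That percentile was 280.1 to 639.9 on pancreatectomy arrays and 177.6 to 655.4 on sham arrays, and the number of arrays limits precision. The brightest kept probe stands for a gene, named through Entrez IDs with a GRCm38.p6 gene table. Tests used limma 3.58.1 in R 4.3.3, with scripts tested on simulated data. Values on every array are given for genes past the threshold, the extremes of each role, and genes whose probes differ in direction. Further pathway genes are named by their 3 largest and 3 smallest differences, and like genes by the 5 highest correlations. The genes and lists were chosen with earlier results of these data known. The scanner files used here hold no mean signal, so normexp used the median signal with an offset of 50.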

Additional observations from a re-analysis of the deposited data

Results flagged for a closer look

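Dixon's test was run on the 4 levels of each gene in each group, 76 groups of 4 in all, and 8 stood out, where chance gives about 1 in 20. Of these, 6 were levels on sham replicate 3, the array with the fewest probes above background. That array had 12.32 for Gins3, against 13.64 to 13.75 on the other sham arrays, 5.59 for Cdc45, against 6.36 to 6.49, and 9.60 for Prim1, against 10.06 to 10.07. It had 7.23 for Prim2, against 7.93 to 8.00, and 6.54 for Rfc3, against 7.03 to 7.09. For Pold3 it was high, with 11.17 against 11.01 to 11.02. Of the pancreatectomy arrays, replicate 4 stood out for Rpa3, with 11.45 against 11.11 to 11.12, and Clspn had 2.19 on sham replicate 1, against 2.89 to 3.03 on the other sham arrays, with 1 of the 4 well above background.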

How the results depend on the processing

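The count of 9 genes that rose was 2 with normexp (on median signals), 1 with no scaling, 5 with no filter on dim probes, 5 with slide row as a block, 20 with array weights, 0 within either slide row, 0 without pancreatectomy replicates 1 and 3, and 0 without the arrays carrying liver, gut or B-cell transcripts. It ran from 4 to 12 when 1 array was left out, and 0 fell in every alternative run. When only probes above background on all 8 arrays were tested, 29 of the genes remained and 6 rose. Of the 9, 4 kept their calls, while Cdc6, Clspn, Dtl, Gins1 and Pole were not tested. Gmnn and Lig1 were gained. The median of 0.78 was 0.56 over genes bright on all 8 arrays and 0.50 without the arrays carrying other organs' transcripts, and ran from 0.59 to 0.92 with 1 array left out. Median scaling put the median of all features at -0.16. Among all features the 168 that rose were 54 with normexp, 18 unscaled, 68 unfiltered, 93 with the stricter filter, 488 with array weights, 111 with the row block, 0 within each row, 14 and 0 without those sets of arrays, and 56 to 165 with 1 array left out. The 26 that fell were 6 with normexp, 48 with median scaling, 0 unscaled, 4 unfiltered, 533 with array weights, 11 with the row block, 0 within each row, 1 and 0 without those sets, and 3 to 32 with 1 array left out. No paired analysis was possible because the labels pair no arrays. The causes were not tested.

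Only differences that did not pass changed sign. Median scaling gave -0.12 for Orc2, -0.056 for Orc4, -0.11 for Orc6, -0.0071 for Pold3 and -0.082 for Rpa1. Orc2 was -0.067 with quantile scaling and -0.0019 unscaled, Orc4 -0.059 with the mean of probes and Gins3 -0.14 with array weights. Within row 1 Orc3 was 0.073, Gins3 -0.26 and Cdc7 -0.23, and within row 2 Orc2 was -0.21, Orc4 -0.089, Orc6 -0.067 and Rpa1 -0.11. With 1 array left out Orc2 ran from -0.11 to 0.24, Orc3 from -0.17 to 0.076, Orc4 from -0.12 to 0.16, Orc6 from -0.11 to 0.14, Gins3 from -0.17 to 0.31, Cdc7 from -0.046 to 0.39 and Rpa1 from -0.065 to 0.17. Orc3 was 0.12 without pancreatectomy replicates 1 and 3. Without the arrays carrying other organs' transcripts Orc2 was -0.16, Orc3 0.056, Orc6 -0.10, Cdc7 -0.36 and Rfc3 -0.032. In an alternative chosen after seeing the data, without sham replicate 3 and pancreatectomy replicate 2, Orc3 was 0.024, Orc4 -0.072, Orc5 0.032 and Gins3 -0.13. Sham signal near background limits the folds of Dtl, Cdc6, Clspn, Pole and Gins1.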
